A study of Homo sapiens and Mus musculus with 6 samples.

Results

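The MYC and PVT1 promoters were represented in the Promoter Capture Hi-C (CHi-C) calls of the human line GM12878 by 12 calls out of 92929, and in those of mouse embryonic stem cells (mESCs) by 1 call out of 101841. A pair of baits called from both ends is listed once for each end, so these totals hold 88667 and 94150 distinct fragment pairs, and each of the 12 and 1 calls is listed once. They were found by taking every call that named MYC or PVT1 among the promoters on either of its fragments. In GM12878 cells MYC took part in 5 calls and PVT1 in 8, and the pair of them was joined by 1 call that counts for both. In mESCs Myc took part in 1 call and Pvt1 in 0.

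CHi-C ligates pieces of crosslinked chromatin that lie close to each other in the nucleus and then enriches, with RNA baits, the ligation products that hold a promoter. Its unit is the HindIII restriction fragment, and a call joins a baited promoter fragment with another fragment. GM12878 is a B-lymphoblastoid line made by immortalising B cells with Epstein-Barr virus, and 3 replicates of untreated cells were used. The mESCs were of the J1 line (129S4/SvJae), grown on irradiated embryonic fibroblasts that were depleted by passaging before harvest, with 2 CHi-C replicates and 1 Hi-C library that was not captured. Each cell type is thus 1 line without a treatment, and species, cell type and bait library changed together between the 2 sets of calls.

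MYC encodes a basic helix-loop-helix leucine zipper transcription factor that drives growth, ribosome production and proliferation, and that binds DNA as a heterodimer with MAX. PVT1 is a long non-coding RNA gene that starts just downstream of MYC on the same strand. Both lie in a gene-poor stretch that is known for carrying many enhancers of MYC, each active in particular tissues, and for many inherited cancer risk variants. In B cells immortalised by Epstein-Barr virus, enhancers bound by viral proteins far upstream of MYC are known to contact its promoter.

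The sequences of the mouse contact were read from the mm9 reference assembly and are shown to let a reader locate the 2 fragments and the motif matches described further on. The first 120 bases of each fragment are given with the bases left by the HindIII cut in capitals. Around each match to the core letters of the motif of CTCF, a DNA-binding protein found at many loop anchors, 30 bases are given on each side. The letters searched were AGGGGGC on both strands, and all 3 matches in the contacted fragment were on the minus strand, so the capitals show the reverse complement on the plus strand.
Start of the Myc bait, chr15:61815728-61815847: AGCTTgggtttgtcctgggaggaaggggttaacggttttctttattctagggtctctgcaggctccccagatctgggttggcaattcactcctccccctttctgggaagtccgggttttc
Start of the contacted fragment, chr15:62078646-62078765: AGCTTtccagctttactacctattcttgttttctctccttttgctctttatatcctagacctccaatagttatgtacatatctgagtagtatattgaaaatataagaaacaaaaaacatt
Copy 1 of the motif, chr15:62081283-62081349: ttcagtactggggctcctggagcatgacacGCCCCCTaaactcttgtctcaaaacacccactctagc
Copy 2 of the motif, chr15:62082294-62082360: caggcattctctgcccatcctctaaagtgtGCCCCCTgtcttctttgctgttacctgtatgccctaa
Copy 3 of the motif, chr15:62084160-62084226: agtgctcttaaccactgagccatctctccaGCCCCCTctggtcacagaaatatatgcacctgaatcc
The first and second copy were each unique on the chromosome when 27 bases ending in the motif were searched on both strands. The 27 bases of the third copy occurred 23 times there.

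In GM12878 cells both promoters reached into the gene-poor stretch upstream of MYC. PVT1 contacted only fragments upstream of itself, whereas MYC contacted fragments on both sides. The calls spanned up to 966.5 kb and, apart from the contact between the promoters, fell in 3 places: a pair of single fragments far upstream, a cluster of fragments in the middle, and 1 fragment beyond the end of PVT1. All positions are in hg19 for human and mm9 for mouse, distances are between the middles of fragments, and upstream and downstream follow the strand of the genes, which is plus for both genes in both genomes.

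The MYC bait was the fragment chr8:128745991-128756979, 10989 bp long and longer than 73.4% of the listed baits. It held the start of MYC together with that of CASC11, a non-coding RNA gene on the opposite strand, so its calls cannot be assigned to one of these promoters. The PVT1 bait was chr8:128801732-128808278, of 6547 bp, and it held the start of PVT1 with no other promoter named.

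**Figure D1:**
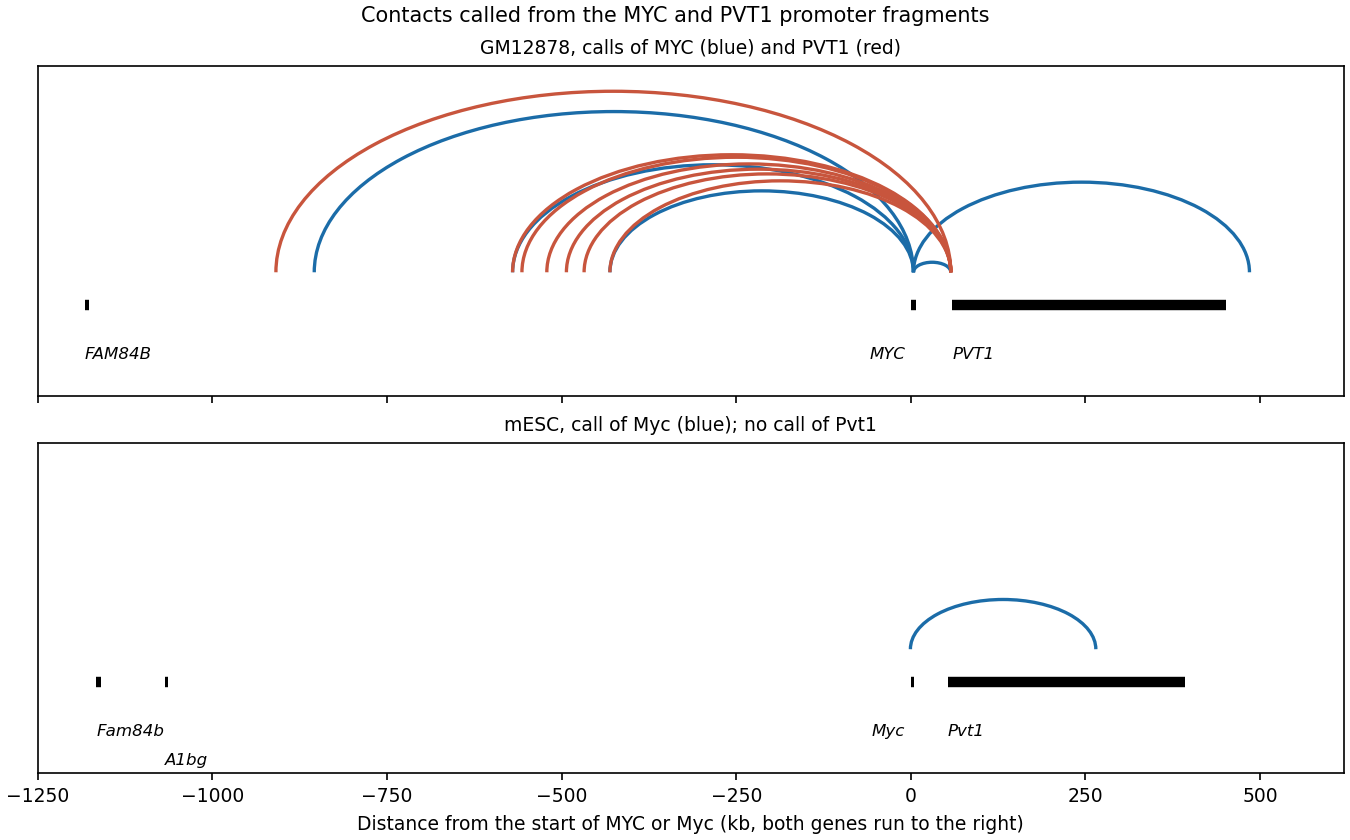
Arcs join the middles of the called fragments in GM12878 cells (top) and mESCs (bottom), against the distance in kb from the start of MYC or Myc; black bars are genes. The 7 calls from the PVT1 bait all run upstream, MYC has 3 upstream and 2 downstream contacts, and the single mouse arc runs downstream into Pvt1.

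The contact between the promoters themselves had the highest read count of all 12 calls. It spanned 53.5 kb, with a read count, combined over the replicates by the authors, of 55 and a CHiCAGO score of 8.2. The score is a soft-thresholded negative log of a p-value weighted by distance, and calls had a score of at least 5. The median read count of the 2830 calls of similar distance, within 10% on each side, was 25, and 97.3% of them had fewer reads. Its score was above that of 68.1% of them. They were not limited to pairs of baits, for which the paper states higher expected read counts than for other pairs at the same distance. The call was made from the MYC bait only, although both fragments were baited. Of all 21129 pairs of listed baits with a call, 20.2% were called from both ends.

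The middle cluster held the fragments that both promoters contacted. PVT1 contacted 6 fragments in chr8:128171973-128319325, a stretch of 147.4 kb that holds 52 HindIII fragments. The outermost of these fragments, and no others of the cluster, were also called from MYC. Thus 2 fragments were shared, which were 50% of the 4 contacts of MYC and 28.6% of the 7 contacts of PVT1 when the promoters themselves are set aside.

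The shared fragment at the upstream edge of the cluster, chr8:128171973-128182972, carried the highest score of all. From MYC it lay 574 kb upstream, with 11 reads and a score of 8.91, which was above 87% of calls at similar distance. From PVT1 it lay 627.5 kb upstream, with 13 reads and a score of 7.63. The fragment overlaps an exon of CASC19 and an intron of PCAT1, both long non-coding RNA genes named for their association with cancers. No gene start lies in it.

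The shared fragment at the other edge, chr8:128314311-128319325, lies in introns of PCAT1 and CASC8, another non-coding RNA gene. From MYC it was 434.7 kb upstream, with 11 reads and a score of 7.16. From PVT1 it was 488.2 kb upstream, with 12 reads and a score of 5.12, just above the threshold. Between the promoters, the read counts for each shared fragment differed by no more than 2, a difference that has no replicate spread to be set against.

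The 4 fragments between these edges were called from PVT1 only. At chr8:128189518-128192177, 614.2 kb upstream, the call had 13 reads and a score of 7.37, and the fragment touches an exon of CASC19. At chr8:128226106-128226854, the shortest contacted fragment with 749 bp, there were 12 reads and a score of 6.34, at 578.5 kb. The 2 others were chr8:128252151-128256930, at 550.5 kb with 12 reads and a score of 5.71, and chr8:128277154-128282580, at 525.1 kb with 12 reads and a score of 5.21. Across the 6 fragments of the cluster the reads from PVT1 were nearly level, between 12 and 13, while the score was lower the nearer the fragment was to PVT1, from 7.63 to 5.12. These fragments had no call from MYC at the threshold, and scores below it are not in the lists.

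The farthest contacts of each promoter were different fragments of the same neighbourhood. MYC contacted chr8:127891697-127895194, in an intron of PCAT1 as annotated in GENCODE, at 858 kb with 7 reads and a score of 5.13. PVT1 contacted chr8:127835410-127841677, which overlaps an exon of PCAT1, at 966.5 kb with 9 reads and a score of 5.34. Both scores were close to the threshold and below those of most calls at similar distance, which they exceeded in 7.1% and 16.2% of cases. As annotated, PCAT1 overlaps every contacted fragment upstream of MYC, so this overlap is not particular to the fragments for which it is named.

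Downstream, MYC had 1 contact besides PVT1. It was chr8:129228809-129236517, at 481.2 kb, with 9 reads and a score of 5.52. PVT1 ends at position 129199347, so this fragment lies beyond the whole of PVT1, and the annotation places in it only RN7SKP226, a 7SK small nuclear RNA pseudogene. PVT1 had no downstream contact, with 0 of 8 calls (0% to 32.4%, Wilson 95% interval, counting error only), against 2 of 5 for MYC (40%, 11.8% to 76.9%). The intervals overlap widely, and neighbouring fragments are not independent.

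**Figure D2:**
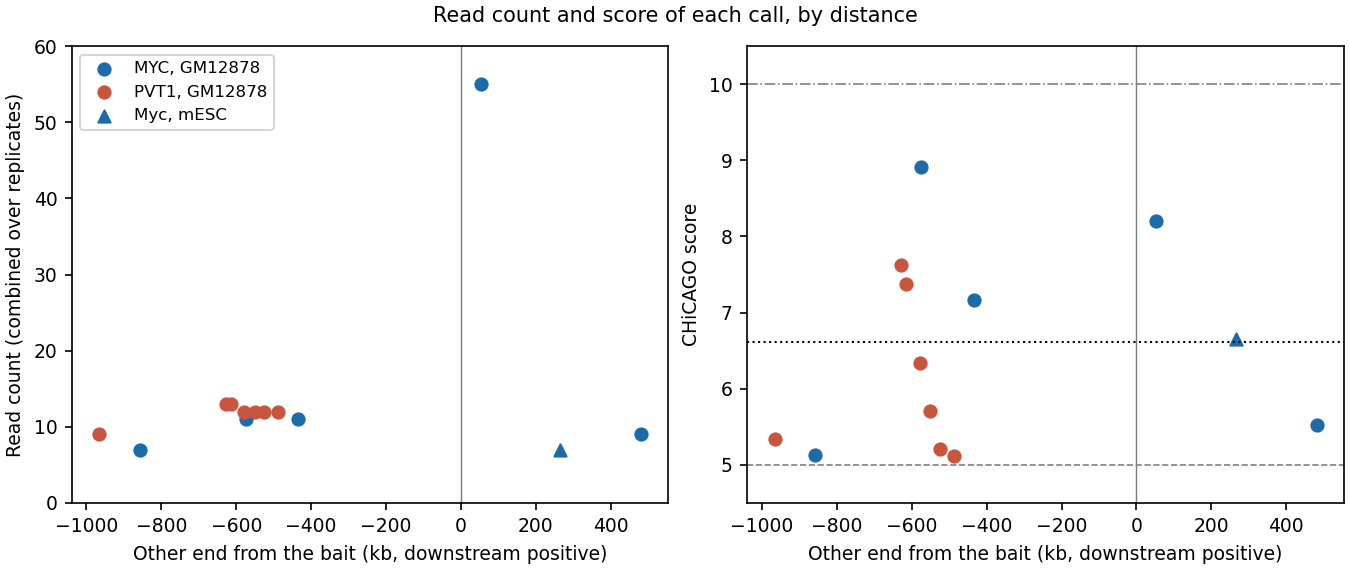
Each point is 1 call from a member bait, by the signed distance of its other end (kb), with the read count on the left and the CHiCAGO score on the right; dashed, dotted and dash-dotted lines mark scores of 5, the median of all GM12878 calls (6.62) and 10. The joint call of MYC and PVT1 stands out at 55 reads, and no point reaches a score of 10.

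The calls were far-reaching but not high-scoring. Among listed GM12878 baits the median farthest contact within the chromosome was at 315.5 kb, and 94.8% of them reached less far than MYC and 96.2% less far than PVT1. These reaches rest on calls with 7 and 9 reads: among calls with at least 10 reads, the farthest contacts upstream were at 574 kb for MYC and 627.5 kb for PVT1, and the farthest downstream of MYC was PVT1 itself at 53.5 kb. The median distance was 481.2 kb for the calls of MYC and 564.5 kb for those of PVT1, against 173.7 kb for all calls. For the median of PVT1 the interval that covers at least 95% is the whole range of its calls, 53.5 to 966.5 kb, and with 5 calls MYC has no such interval. Scores ran from 5.12 to 8.91, and 0 of 12 calls had a score of at least 10, which 16.3% of all GM12878 calls had. The read counts of the far calls, 7 to 13, bracketed the median of 9 for all calls over 400 kb.

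Neither the number of calls nor its one-sidedness set these baits far from others. The median listed bait had 3 calls, 38.5% had 5 or more and 26.9% had 7 or more, compared with 5 calls from the MYC bait and 7 from the PVT1 bait. Of the 580 baits with exactly 7 calls within the chromosome, 33.6% had all of them on 1 side, as PVT1 had. Within 1 Mb, MYC contacted 3 of 330 fragments upstream and 2 of 308 downstream, together 0.784%. PVT1 contacted 8 of 324 fragments upstream and 0 of 323 downstream, together 1.24%, with the MYC promoter counted. The call with the MYC promoter was made from the MYC bait, and the 7 others from the PVT1 bait. Over all listed GM12878 baits, 1.15% of the pairs of a bait and a fragment within 1 Mb were called, counted from the bait only. The shares of MYC and PVT1 were near this background. Neither promoter was in a call between chromosomes.

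**Figure D3:**
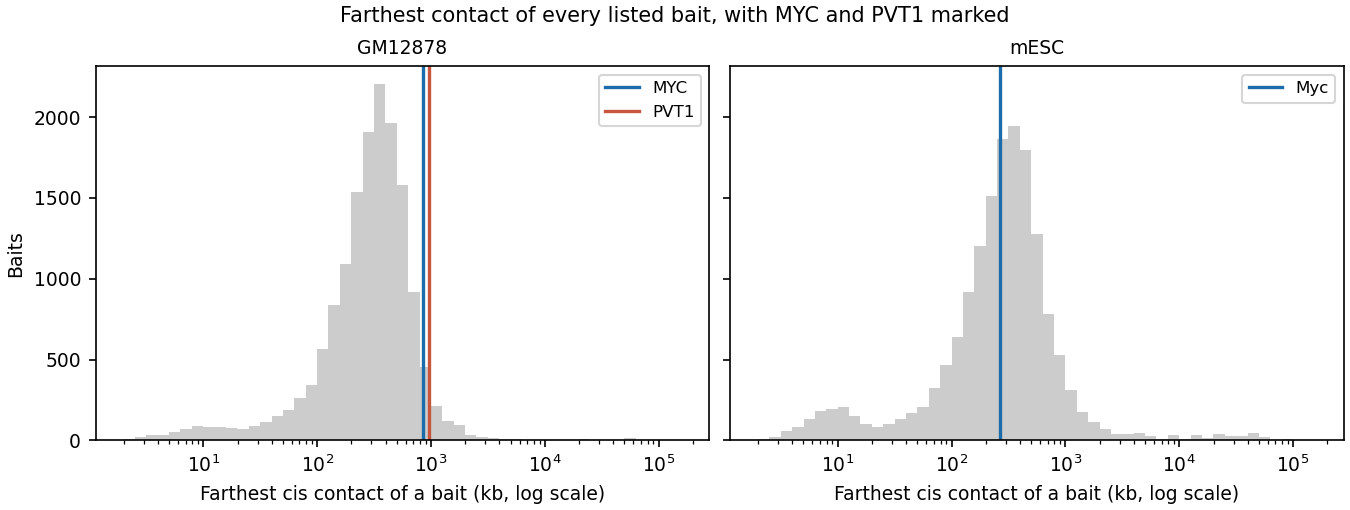
Histograms of the farthest contact within the chromosome (kb, log scale) of each listed bait, with lines at the member baits. The lines of MYC and PVT1 stand in the right tail in GM12878 cells, and that of Myc lies near the middle in mESCs.

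Most calls with an end in the stretch around MYC and PVT1 were their own. Each call needs a bait, and the lists, which hold only baits with calls, do not show how many baits lie there. The number of calls was not compared with that of other stretches. The stretch was taken from FAM84B (LRATD2 in the annotation), whose start is 1177 kb upstream of that of MYC. It includes FAM84B and runs up to FAM49B (CYRIB) on the other side. It measures 3.29 Mb, holds 1029 HindIII fragments and also contains the protein-coding genes POU5F1B and GSDMC. Of the 16 GM12878 calls with an end in it, 12 were those of MYC and PVT1. None of the 9 fragments contacted by MYC or PVT1 was contacted by any other bait, so 7 of them had 1 bait and 2 had 2. This was usual in the list, where 68.4% of the 41386 contacted fragments that are no listed bait had 1 bait and 86.1% had 1 or 2. The others were 2 calls from RNU6-869P, a small nuclear RNA pseudogene, and 2 from RP11-473O4.5 next to FAM49B. One call from RNU6-869P reached FAM84B, and the other spanned the whole MYC and PVT1 locus over 2309 kb to AC068570.1, with 3 reads and a score of 5.63. POU5F1B, CASC8, CCAT1, PCAT1, TMEM75, CCDC26, GSDMC, ADCY8 and the miRNA genes MIR1204 to MIR1208 were named on no listed call. The lists do not show whether these genes were baited. They name promoters only, and the contacted fragments that overlap PCAT1 or CASC8 held no gene start.

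In mESCs a single contact was called, on the downstream side. The Myc bait chr15:61815728-61817082 was contacted by chr15:62078646-62085217, 265.5 kb downstream, with 7 reads and a score of 6.65. Nothing upstream of Myc was called, and a downstream share of 1 in 1 call has a Wilson 95% interval of 20.7% to 100%. The contacted fragment overlaps an exon of Pvt1 and lies inside the gene, which runs from 52.6 kb downstream of the start of Myc over 340.1 kb. Its reads were more than those of 15.1% of mESC calls at similar distance, and its score was above that of 57.2%. It was below 10, a score that 16.9% of all mESC calls reached.

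The Myc bait was short, with 1355 bp against a median of 5737 bp, and only 4.46% of listed mESC baits were shorter. One call was common, since 23.4% of listed mESC baits, 3798 of 16265, had exactly 1. Within 1 Mb, 0 of 356 fragments upstream and 1 of 326 downstream were called, together 0.147%, against 1.01% of all such pairs over the listed mESC baits. The bait with the start of MYC was 10989 bp long in GM12878 cells and 1355 bp in mESCs, and the part of this in the number of calls was not tested. The reach of Myc was longer than that of 45.2% of listed baits. Pvt1 was named on no call, and since the lists hold only baits with calls, they do not show whether it was baited. The wider stretch from Fam84b to Fam49b, 3.11 Mb with 1011 fragments, had 4 calls in all, and the 3 others had A1bg at one end.

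The counterpart of each contact in the other genome was placed by aligning the 2 stretches and interpolating between the middles of the nearest alignments. The collinear chain had 814 alignments with a mean identity of 71.2%. In it, 8 of the 9 human contacted fragments had aligned bases (88.9%), against 253 of the 428 fragments between the outermost contacts (59.1%), and contacted fragments were longer, with a median of 5015 bp against 2085 bp for all fragments within 1 Mb of the MYC bait. The exception was the 749-bp fragment. Of the 9 human contacts, 0 aligned to the fragment contacted in mESCs. Only 1 of the 428 fragments did (0.234%), so a count of 0 among 9 does not set the contacts apart.

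The chain keeps the order of the alignments by construction, so the distances are what it adds. The upstream human contacts had interpolated counterparts 442 to 880.6 kb upstream of the mouse Myc bait, where no call was made. Between 0% and 22.8% of the bases of each of these fragments were aligned, so the positions are estimates. The human contact beyond PVT1 was placed at chr15:62198428-62211108, 388 kb downstream, which holds the end of Pvt1. The mouse contact was placed at chr8:129091582-129099407, 344.9 kb downstream of the human MYC bait and within PVT1. This place was in no GM12878 call. In the annotation of its own genome, the mouse downstream contact lay inside Pvt1 and the human one past the end of PVT1. The annotations are different GENCODE releases, and the interpolated counterpart of the human contact overlaps Pvt1.

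**Figure D4:**
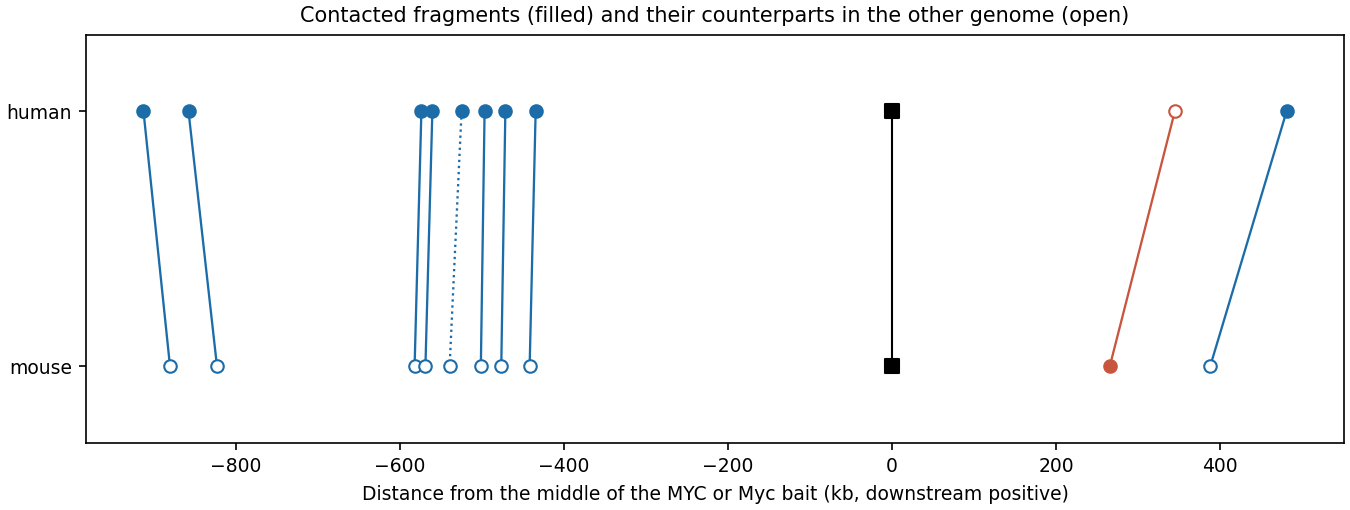
Filled points are contacted fragments and open points their counterparts in the other genome, by distance from the middle of the MYC or Myc bait (kb, squares). Positions of counterparts are interpolated between alignments. Blue lines start from human and red from mouse contacts, and the dotted line marks a fragment without aligned bases. The order of the lines is fixed by the collinear chain; none of the lines from a filled point ends on a filled point.

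The share of contacted fragments with the CTCF core letters was set beside that of the fragments around them. In GM12878, 2 of 9 contacted fragments held a match (22.2%), compared with 113 of the 637 fragments within 1 Mb of the MYC bait (17.7%). Of the 531 fragments within 1.5 times the length range of the contacted ones, 109 held a match (20.5%). Their median length was 2615 bp, against 5015 bp for the contacted fragments, so this comparison is not matched for length. The matches in contacted fragments were in the farthest contact of PVT1, with 2 on the plus strand, and in the shared fragment nearest to MYC, with 1 on the plus strand. The MYC bait itself held 2 on the plus strand. In the mouse, the contacted fragment held the 3 printed matches, and 50 of the 137 fragments of similar length within 1 Mb held at least 1 (36.5%). Letters alone do not show binding.

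Hi-C without capture, from 1 mESC library, showed Myc at coarser resolution. The paper describes these data as pre-capture, so they are not taken here as independent of the CHi-C calls. The 25-kb bin that holds the start of Myc had 8 listed partners within 1 Mb, all downstream. The values are read pairs that join 2 bins, set against the number expected from coverage and distance.

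The mouse contact fell in one of these pairs. The partner at 268.1 kb, which contains the contacted fragment, had 15 read pairs against 4.55 expected. Its false discovery rate (FDR) was 0.883, so the pair was listed but did not pass 0.05. Of all listed 25-kb pairs, 9.79% passed. Among mESC calls spanning 200 to 300 kb, 24% lay in a listed pair and 7.76% in one with an FDR under 0.05.

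The 2 partners of Myc with an FDR under 0.05 were others. One was 147.1 kb away, inside Pvt1, with 43 read pairs against 18.3 expected and an FDR of 0.0165. The other was 823.1 kb away, with 14 against 2.51 and an FDR of 0.013. The remaining 5 partners lay at 96.1, 118.1, 456.3, 802.7 and 883.4 kb, with 29, 19, 10, 7 and 6 read pairs. Bins with a listed partner had a median of 2, and 98.5% of them had fewer than the Myc bin. Of the 363 bins with exactly 8 partners, 26.5% had all on 1 side. The bin with the start of Pvt1 had 0 listed partners. In bins of 1 Mb, the bin of Myc at 61 Mb had listed partners within the chromosome at 62 and 63 Mb, downstream, and none upstream.

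**Figure D5:**
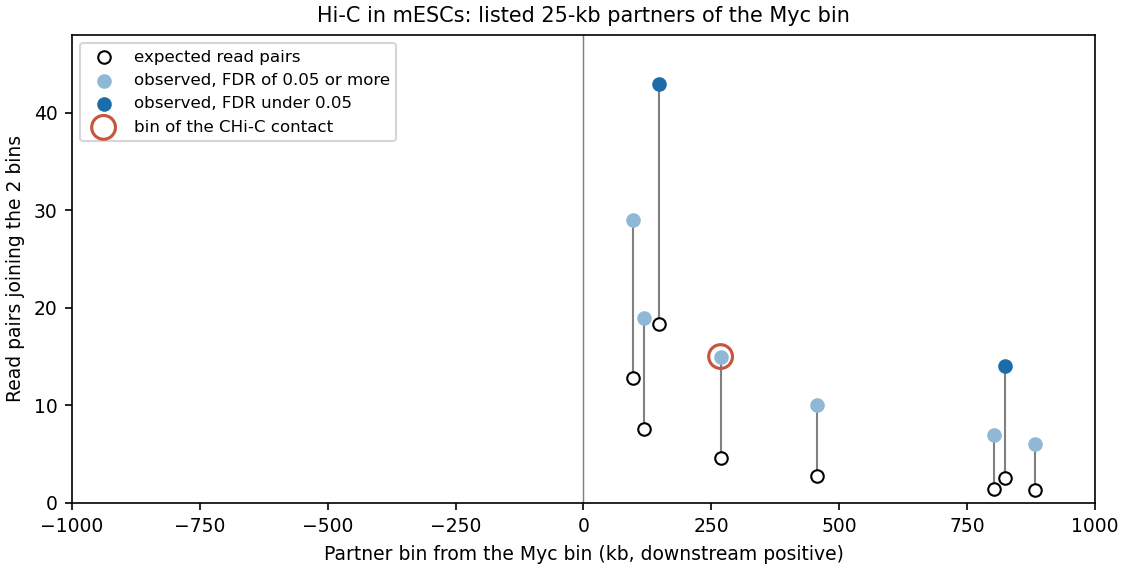
Read pairs joining the Myc bin to each listed 25-kb partner in mESC Hi-C, by signed distance (kb); filled points are observed, open points expected, and the ring marks the bin with the CHi-C contact. All 8 partners lie downstream, and the 2 dark points, at 147.1 and 823.1 kb, have an FDR under 0.05.

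Promoters of other MYC network genes gave a frame for these numbers. The network comprises the MYC paralogues, the shared partner MAX, the repressive MXD proteins, MXI1, MNT and MGA that compete for MAX, and the MLX branch. In GM12878 cells 12 of these genes besides MYC had calls as bait, from 1 for MYCN and MXD4 to 70 for MXD3, with a median of 3.5. MAX had 3 calls with a median distance of 521.3 kb, the only one of the 12 above the 481.2 kb of MYC. None reached as far as MYC, the farthest being that of MAX at 622.8 kb. The reach of MYC rests on a call with 7 reads, and among its calls with at least 10 reads it was 574 kb. That read limit was not applied to the other network genes. In 5 of the 12, at least 1 call had a score of 10 or more, which no call of MYC had.

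In mESCs the order was different. Among 11 other network genes with calls, none had fewer than the 1 call of Myc, and Mxd4 also had 1. Mycn, the paralogue known for its expression in embryonic stem cells, had 6 calls with a highest score of 13.2, and Mycl1 had 20 with a highest score of 33. In 7 of the 11, the farthest contact lay beyond the 265.5 kb of Myc. The counts of the 2 cell types come from different bait libraries and were not tested against each other.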

How the data were processed

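The authors mapped read pairs with HiCUP (Bowtie 1.1.0 per the labels) to hg19 or mm9, kept captured pairs and called interactions with Chicago jointly on all replicates of a cell type. The deposited lists hold, for each call, a score of at least 5 and a rounded read count combined over replicates, which is not a raw count. The deposited mESC Hi-C lists hold, per pair of bins made with HOMER 4.7, the count of read pairs, an expected coverage signal and an FDR (adjusted p-value); 10 further columns were not used. The lists hold no value per replicate, so no test was run; read totals per replicate, which the study states, are not part of these lists and were not used here.

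The members and gene lists were chosen with earlier results of these data known. Calls were selected by gene symbol in Python 3.11.15 (pandas 2.3.3). Fragments in a window or stretch were counted in an in-silico HindIII digest of each genome. Gene positions came from GENCODE annotations of GRCh37 and NCBIM37. The stretches were aligned with blastn 2.17.0 without repeat masking (E value of at most 1e-10), a departure from the planned masked search because the reference was not soft-masked, and the collinear chain with the highest summed bit score was kept. Genes named were the members, all genes on contacted fragments, neighbours of the locus and the MYC network. Intervals of shares are Wilson 95% intervals, and that of the median of PVT1 is a binomial order-statistic interval. Alternatives were scores or read counts of at least 10, the browser list, unique pairs, baits only, edge distances and other FDR and E value limits. The reading of gene symbols, the Wilson interval and the way of counting nearby fragments were checked on made-up data, and the other steps were not.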

Additional observations from a re-analysis of the deposited data

How the results depend on the processing

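With the browser list, counting each pair once or counting members only as bait, none of the 14 results was classed as moved. Counts had to stay within 1.5 times, and shares and the median of PVT1 within their intervals. Reaches and the other medians had to stay equal. These settings could change little. Each call is listed once, and the browser list gives the same merged calls. Counting members only as bait took away just the call from MYC to PVT1, which left PVT1 with 7 calls. With a score of at least 10, the number of calls moved to 0 for MYC and for PVT1 in GM12878 cells and to 0 for Myc in mESCs. With a combined read count of at least 10, MYC had 3 calls, a median distance of 434.7 kb, a longest upstream reach of -574 kb and a longest downstream reach of 53.52 kb (to PVT1); the longest reach of PVT1 was -627.5 kb, and Myc in mESCs had 0 calls. Measured between nearest edges, MYC had a median of 471.8 kb and reached -850.8 kb and 471.8 kb, PVT1 reached -960.1 kb, and Myc in mESCs had a median and a reach of 261.6 kb. With every listed Hi-C bin pair, 1 call of Myc lay in a pair, against 0 at an FDR under 0.05 or 0.01. With an E value of at most 1e-20, 0 human contacts aligned to the mouse contact, as at 1e-10. Where no call was left, distances and shares had no value.

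The read count limit removed every contact beyond 627.5 kb and the contact past PVT1. No paired analysis was possible because the replicates of each cell type were called together and the lists hold no value per replicate; for the same reason no replicate was left out.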

Other observations

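Several promoters around the locus were baits only of calls that did not enter the stretch from FAM84B to FAM49B. In GM12878 cells TRIB1, a pseudokinase gene upstream of FAM84B, was the bait of 27 calls reaching up to 334.3 kb, with a highest score of 22.9. Its neighbour NSMCE2, a SUMO ligase of the SMC5/6 complex, had 6 calls as bait reaching 598.6 kb, and SQLE, the squalene epoxidase of sterol synthesis, had 14 reaching 488.9 kb. On the far side FAM49B had 2 calls and ASAP1, which encodes an ARF GTPase-activating protein, had 10 from 2 baits. In mESCs Trib1 had 9 calls reaching 315.1 kb, Sqle 6, Fam49b 4 and Asap1 2. In the human genome TRIB1 starts 2305 kb upstream and ASAP1 2708 kb downstream of MYC, so their calls, of at most 334.3 kb, ended outside the fragments that MYC and PVT1 contacted.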
